A study of Mus musculus with 6 samples.

Results

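The class I PI3-kinase family was examined in tumour-associated macrophages through 9 genes, found in the deposited gene table by an exact match of the gene symbol. All 9 of the 9 listed genes were found, out of 15487 genes in the table, and all 9 entered the test. They comprise 4 catalytic subunit genes (Pik3ca, Pik3cb, Pik3cd and Pik3cg), 4 regulatory subunit genes (Pik3r1, Pik3r2, Pik3r5 and Pik3r6) and 1 phosphatase gene, Inpp5d. The macrophages came by flow cytometry from tumours of CT26, a colon carcinoma line of BALB/c mice, on day 15 after the tumour challenge. The Sg-Con group held 3 libraries from tumours labelled CT26-Sg-Con, taken here to carry a control guide RNA, and the Sg-C3 group held 3 from tumours labelled CT26-Sg-C3, taken to carry a guide RNA against complement C3. The guide was in the tumour cells, and the macrophages of both groups were labelled wild type on a BALB/C background. Whether the tumour lines were clones or pools, where they were implanted, and the age and sex of the mice are not given in the sources used here. Nothing in the labels ties the 3 libraries of a group to separate mice. The p-values therefore rest on the spread among libraries, and part or all of that spread could be technical.

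Class I PI3-kinases phosphorylate the membrane lipid PIP2 to PIP3, which recruits AKT, the TEC-family kinases and exchange factors for Rac to the plasma membrane. The class IA enzymes pair a p110 alpha, beta or delta catalytic subunit (Pik3ca, Pik3cb, Pik3cd) with a p85-type regulatory subunit (Pik3r1, Pik3r2) that docks on phosphorylated tyrosines. The class IB enzyme pairs p110 gamma (Pik3cg) with p101 (Pik3r5) or p84 (Pik3r6) and responds to G protein beta-gamma subunits released by chemoattractant receptors. Inpp5d encodes SHIP1, a leukocyte phosphatase that removes a phosphate from PIP3. The delta and gamma isoforms, p101 and SHIP1 are known chiefly from leukocytes, and p110 gamma has been studied as a regulator of macrophage state in tumours.

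The 6 libraries were similar in size, with 17.7 to 19.4 megareads each as estimated from the values, and correlated at r = 0.986 to 0.990 within groups and 0.945 to 0.974 between them over log2 values of all genes. All 8 macrophage markers looked at were measured in both groups. Adgre1, which encodes F4/80, stood at 173 ± 11.6 and 172 ± 29.8 FPKM in Sg-Con and Sg-C3 (SD, n = 3), while Lyz2, Cd68, Itgam and Mertk were called lower in Sg-C3. C3, the gene targeted in the tumour cells, was at 89.94, 78.24 and 59.66 FPKM in the Sg-Con macrophages and at 150.59, 199.14 and 169.61 FPKM in the Sg-C3 macrophages, which carry no guide, so this does not check the labels. FPKM is a level scaled by gene length and by library size, so levels of different genes can be set side by side.

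Of the 9 genes, 4 rose in macrophages from Sg-C3 tumours (Pik3cb, Pik3r1, Pik3r5 and Pik3r6), 3 fell (Pik3ca, Pik3r2 and Inpp5d), and Pik3cd and Pik3cg did not pass. The changes were moderate, between 1.40-fold and 1.85-fold. A gene is called when its adjusted p in limma's fit over all tested genes is below 0.05. By that rule 44.4% of the 11198 tested genes were called, 12.7% higher and 31.7% lower, so that 7 of 9 called genes is to be read against a background in which many genes differ. The groups did not overlap for 8 of the 9, against 57.6% of tested genes. The median fitted difference was -0.22 for the 9 genes and -0.16 for all tested genes. Fitted differences are Sg-C3 minus Sg-Con on the log2(FPKM + 1) scale, which understates the change of low genes.

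**Figure D1:**
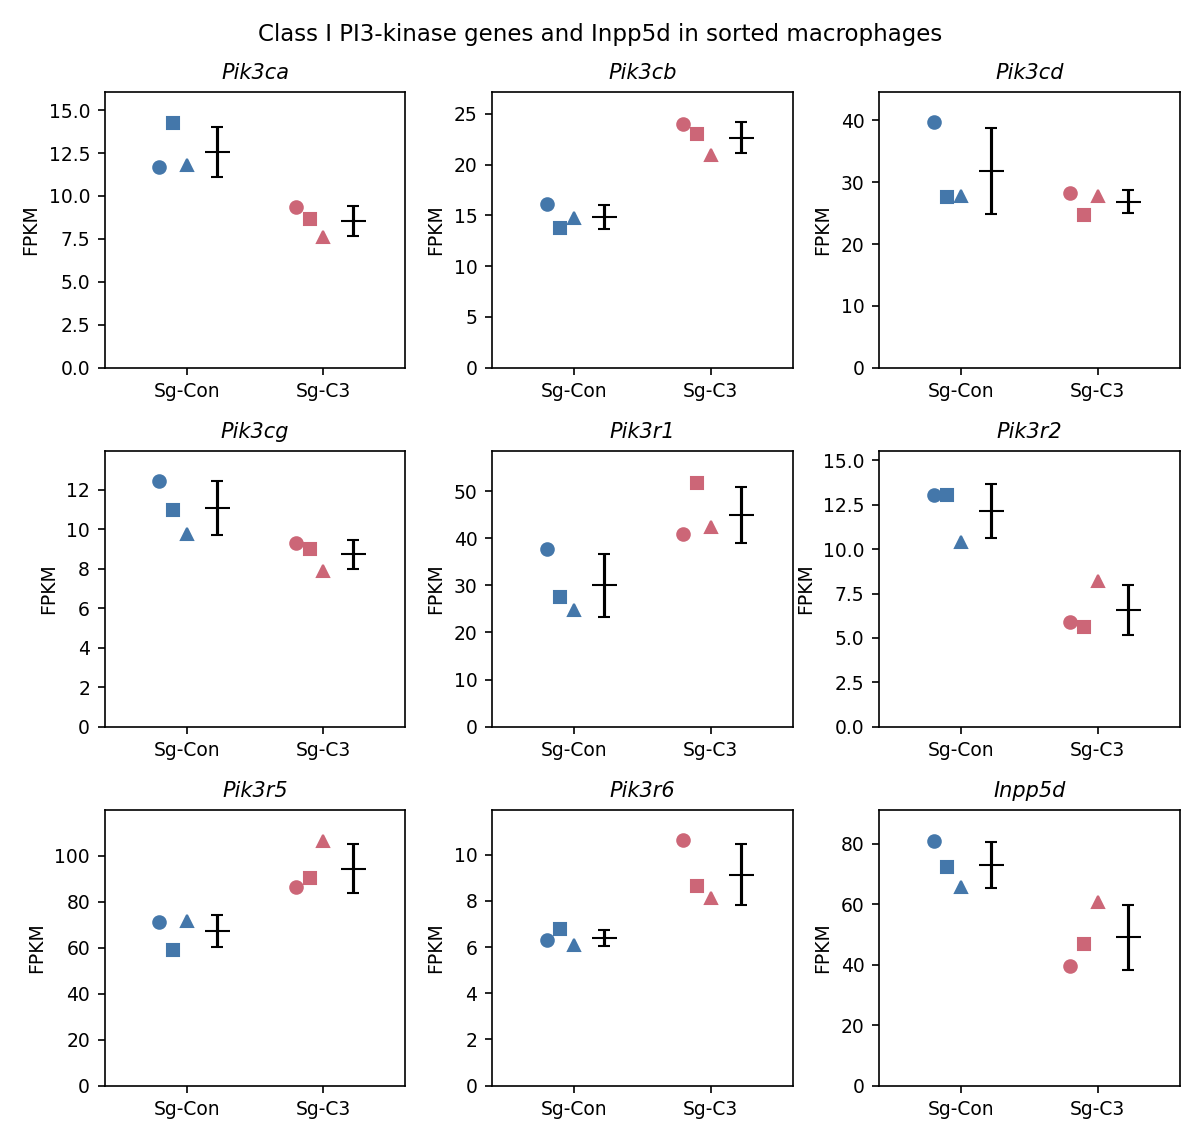
Level of each of the 9 genes in FPKM (vertical axis, from 0) in the 3 Sg-Con (blue) and 3 Sg-C3 (red) libraries, with circles, squares and triangles for replicates 1, 2 and 3, and black bars for the mean and SD of each group. Pik3cb, Pik3r1, Pik3r5 and Pik3r6 lie higher in Sg-C3, Pik3ca, Pik3r2 and Inpp5d lie lower, and Pik3cd is the single gene whose groups overlap.

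In Sg-Con macrophages the order of levels ran from Inpp5d (72.9 ± 7.48 FPKM) and Pik3r5 (67.3 ± 7.07) through Pik3cd (31.8 ± 6.94) and Pik3r1 (30.0 ± 6.74) to Pik3cb (14.9 ± 1.20), Pik3ca (12.6 ± 1.46), Pik3r2 (12.2 ± 1.53), Pik3cg (11.1 ± 1.37) and Pik3r6 (6.4 ± 0.358). Neighbours overlapped in their values at 5 of these steps, namely Inpp5d with Pik3r5, Pik3cd with Pik3r1, and each step from Pik3cb to Pik3cg. In Sg-C3 macrophages Pik3r5 stood first at 94.3 ± 10.7 FPKM without overlap, ahead of Inpp5d and Pik3r1, which overlapped. Pik3r6, Pik3cg, Pik3ca and Pik3r2 formed the low end, each overlapping the next.

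The 250 bases before the RefSeq start are shown for Pik3cb, Pik3r5 and Pik3r2, the 3 genes called in every fit tried, and for the phosphatase gene, from RefSeq with build GRCm38.p6, 5′ to 3′ on the strand of the gene. Windows were found for 8 of the 9 genes, with Pik3r6 the exception. Each was searched on both strands for GAGGAA, a core bound by the myeloid factor PU.1, for the STAT site TTCNNNGAA and for the interferon-stimulated response element. Matches are in capitals.
Pik3cb (chr9:99140212-99140461, minus strand): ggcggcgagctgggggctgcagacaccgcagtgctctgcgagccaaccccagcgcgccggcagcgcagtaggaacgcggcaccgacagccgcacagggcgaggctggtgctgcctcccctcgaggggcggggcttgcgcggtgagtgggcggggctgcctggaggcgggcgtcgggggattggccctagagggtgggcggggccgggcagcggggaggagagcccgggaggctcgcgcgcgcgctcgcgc
Pik3r5 (chr11:68431875-68432124, plus strand): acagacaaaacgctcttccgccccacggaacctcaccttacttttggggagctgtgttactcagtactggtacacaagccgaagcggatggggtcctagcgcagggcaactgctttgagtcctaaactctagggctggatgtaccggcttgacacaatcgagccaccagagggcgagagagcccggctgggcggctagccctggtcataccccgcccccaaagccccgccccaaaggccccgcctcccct
Pik3r2 (chr8:70776713-70776962, minus strand): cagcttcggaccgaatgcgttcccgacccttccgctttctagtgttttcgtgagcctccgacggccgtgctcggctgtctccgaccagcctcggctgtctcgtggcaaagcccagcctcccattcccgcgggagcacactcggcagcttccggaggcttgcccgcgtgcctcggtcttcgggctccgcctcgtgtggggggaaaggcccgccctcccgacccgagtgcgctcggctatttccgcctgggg
Inpp5d (chr1:87620062-87620311, plus strand): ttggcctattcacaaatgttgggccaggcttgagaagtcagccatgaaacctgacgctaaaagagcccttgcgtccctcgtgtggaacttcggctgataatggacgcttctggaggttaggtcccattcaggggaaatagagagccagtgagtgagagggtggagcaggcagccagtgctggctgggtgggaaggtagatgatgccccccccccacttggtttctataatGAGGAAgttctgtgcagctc

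Among the printed windows the PU.1 core stands in that of Inpp5d, with 14 bases between it and the start. Of the 8 genes, Pik3cg also held it, in the window of the more downstream of its annotated starts. The core is found in 23.3% of all 32851 RefSeq windows of this length. None of the 8 genes had a match to the interferon element (2.98% of all windows) or to the STAT site (7.02%), which says only that these letters are not in these windows. The Pik3cb window is 78% G and C with 32 CpG dinucleotides, and the Pik3r2 window 68.4% with 29, against a median of 52.4% and 6 over all windows. The Inpp5d window holds 54.4% and 5, and that of Pik3r5 61.6% and 14. The coordinates belong to GRCm38, while the submitters' processing notes name mm8.

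Among the catalytic subunits, Pik3cb rose and Pik3ca fell. Pik3cb, which encodes p110 beta, was at 16.11, 13.71 and 14.75 FPKM in Sg-Con and at 23.97, 22.97 and 20.99 FPKM in Sg-C3. Every Sg-C3 library was above every Sg-Con library, a 1.52-fold rise of the mean (fitted difference 0.58, SE 0.10, limma adjusted p = 0.00551). Pik3ca, which encodes p110 alpha, the isoform used by most growth factor and insulin receptors, was at 11.66, 14.26 and 11.81 FPKM in Sg-Con and at 9.38, 8.65 and 7.6 FPKM in Sg-C3. These groups did not overlap either, and the Sg-Con mean was 1.47-fold the Sg-C3 mean (fitted difference -0.51, SE 0.12, adjusted p = 0.0145). The call of Pik3ca was lost after quantile normalization (-0.35, adjusted p = 0.0660) and after median-ratio scaling (-0.33, adjusted p = 0.0770).

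The isoforms known chiefly from leukocytes did not pass. Pik3cd, which encodes p110 delta, was at 39.78, 27.68 and 27.84 FPKM in Sg-Con and at 28.18, 24.68 and 27.74 FPKM in Sg-C3. Apart from Sg-Con replicate 1 its values lay together, and the fitted difference was -0.22 with a 95% interval of -0.57 to 0.14 (adjusted p = 0.275). Pik3cg, which encodes p110 gamma, was at 12.47, 11 and 9.74 FPKM in Sg-Con and at 9.3, 9 and 7.88 FPKM in Sg-C3. The groups did not overlap but lay close, with a fitted difference of -0.31 and a 95% interval, not adjusted for the number of genes, of -0.59 to -0.03 (adjusted p = 0.0703). Neither result shows that the levels were equal.

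All 4 regulatory genes were called, 3 higher and 1 lower. Pik3r1, which encodes p85 alpha and its shorter forms, was at 37.63, 27.57 and 24.83 FPKM in Sg-Con and at 40.89, 51.76 and 42.3 FPKM in Sg-C3. The groups were 3.26 FPKM apart at their nearest values and did not overlap (fitted difference 0.58, SE 0.17, adjusted p = 0.0279). Pik3r2, which encodes p85 beta, moved the other way, from 13.04, 13.05 and 10.4 FPKM to 5.87, 5.62 and 8.2 FPKM. Its Sg-Con mean was 1.85-fold its Sg-C3 mean, with a fitted difference of -0.81 (SE 0.16, adjusted p = 0.00785). With the deposited scaling this was the fitted difference farthest from 0 among the 9 genes, while after median-ratio scaling those of Pik3cb, Pik3r1 and Pik3r5 were farther.

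The regulatory subunits of p110 gamma rose while Pik3cg itself did not pass. Pik3r5, which encodes p101, was at 71.1, 59.12 and 71.62 FPKM in Sg-Con and at 86.33, 90.14 and 106.52 FPKM in Sg-C3, without overlap (fitted difference 0.48, SE 0.12, adjusted p = 0.0167). Pik3r6, which encodes p84, was at 6.29, 6.8 and 6.11 FPKM in Sg-Con and at 10.62, 8.66 and 8.13 FPKM in Sg-C3, again without overlap (0.45, SE 0.12, adjusted p = 0.0217). Both rose by a like amount, 1.40-fold and 1.43-fold of the means. In RefSeq's GRCm38 annotation the genes are neighbours, with no other protein-coding gene between them.

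Inpp5d, the phosphatase gene, fell. It was at 80.72, 72.16 and 65.81 FPKM in Sg-Con and at 39.71, 46.85 and 60.8 FPKM in Sg-C3. The highest Sg-C3 library, replicate 3, lay 5.01 FPKM under the lowest Sg-Con library, and the Sg-Con mean was 1.48-fold the Sg-C3 mean (fitted difference -0.58, SE 0.16, adjusted p = 0.0252). After median-ratio scaling the difference was -0.39 and the call was lost (adjusted p = 0.0930).

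The calls of Pik3cb, Pik3r2 and Pik3r5 held in each of the 14 other fits, which changed the pseudocount, the filter, the scaling, the variance model or the covariate, or left out 1 library. Pik3r1 lost its call when Sg-Con replicate 2 (adjusted p = 0.0780) or 3 (0.0748) was left out, and likewise Sg-C3 replicate 1 (0.0522) or 2 (0.0965). Pik3r6 lost its call when Sg-Con replicate 1 (adjusted p = 0.0586) or 3 (0.0625) was left out, and likewise Sg-C3 replicate 1 (0.0604) or 2 (0.0550). Inpp5d lost its call when Sg-Con replicate 1 (adjusted p = 0.0722) or 2 (0.0601) was left out, and likewise Sg-C3 replicate 1 (0.0702) or 2 (0.0807). All these fits kept the direction of each gene.

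**Figure D2:**
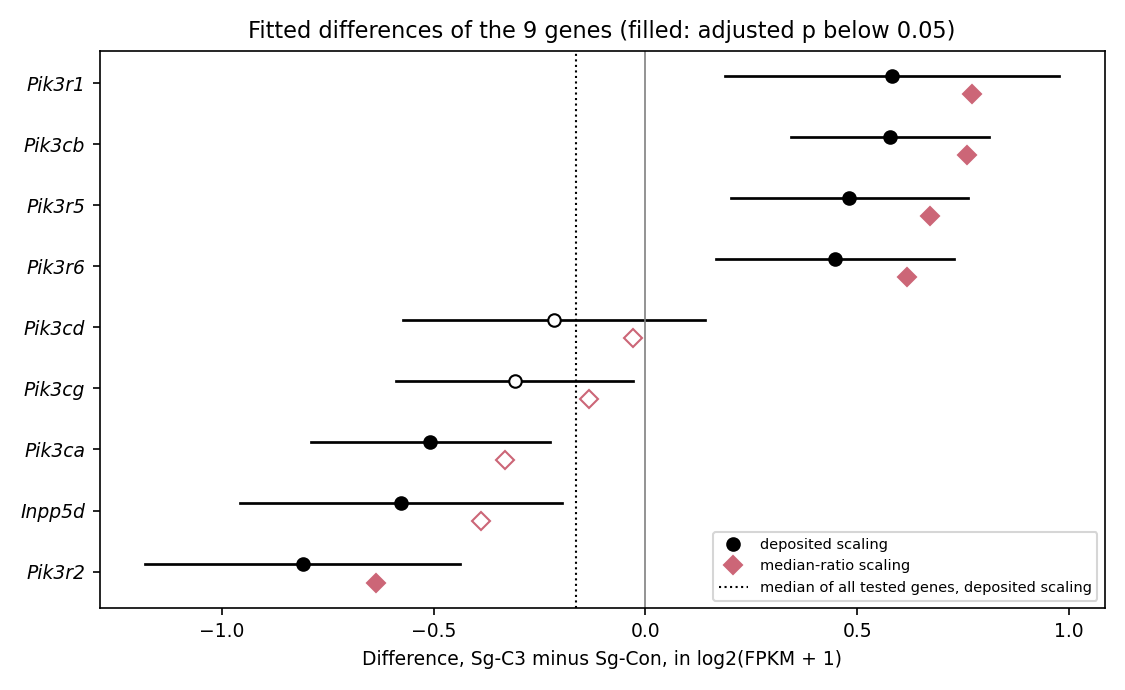
Fitted difference of each gene, Sg-C3 minus Sg-Con in log2(FPKM + 1) (horizontal axis), with the deposited scaling (black circles, with 95% intervals) and after median-ratio scaling (red diamonds), filled where the adjusted p is below 0.05. The dotted line marks the median of all tested genes, -0.16. The 4 genes that rose lie between 0.45 and 0.58 with the deposited scaling, and Pik3ca and Inpp5d are open after median-ratio scaling.

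The deposited scaling placed most genes slightly lower in Sg-C3, and that shift bears on the size of each difference. Median-ratio scaling, which sets the typical gene equal between libraries, moved the median of all tested genes from -0.16 to 0.00. The share of calls that were lower then went from 71.5% to 47.3%. Under it the 4 higher genes stood at 0.76 (Pik3cb), 0.77 (Pik3r1), 0.67 (Pik3r5) and 0.62 (Pik3r6), Pik3r2 at -0.64, Pik3cg at -0.13 (adjusted p = 0.396) and Pik3cd at -0.03 (adjusted p = 0.883). So 5 of the 9 genes were called, 4 higher and 1 lower, where 37.2% of all tested genes were called, 19.6% higher and 17.6% lower. Shares within a library do not depend on this choice and are given next.

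The make-up of the catalytic subunits shifted towards Pik3cb, while the groups overlapped in their sum. The summed FPKM of the 4 catalytic genes was 80.02, 66.65 and 64.14 in Sg-Con and 70.83, 65.3 and 64.21 in Sg-C3 (exact permutation test, two-sided p = 0.7). The Sg-C3 mean was 0.95 of the Sg-Con mean with the deposited scaling and 1.09 of it after median-ratio scaling (exact permutation p = 0.3), so the direction of the sum depends on the scaling. Pik3cb made up 20.1%, 20.6% and 23.0% of that sum in Sg-Con and 33.8%, 35.2% and 32.7% in Sg-C3, a gain of 12.7 percentage points from 21.2% ± 1.54 to 33.9% ± 1.24 (SD, n = 3). Pik3ca went from 18.1% ± 3.42 to 12.8% ± 0.813 and Pik3cg from 15.8% ± 0.676 to 13.1% ± 0.757, each without overlap. Pik3cd was the most abundant catalytic gene in all 6 libraries, at 44.9% ± 4.29 and 40.3% ± 2.73, and its shares overlapped. With 3 libraries against 3 the exact permutation test cannot give less than p = 0.10, which Pik3ca, Pik3cb and Pik3cg reached (0.133 adjusted over the 4 genes), and Pik3cd had p = 0.2. In a limma fit after every library was divided by its catalytic sum, with 1 added, the share of Pik3cb rose (fitted difference 0.64, SE 0.13, adjusted p = 0.00629). Those of Pik3ca (-0.45, adjusted p = 0.0591), Pik3cg (-0.25, adjusted p = 0.175) and Pik3cd (-0.15, adjusted p = 0.422) did not pass.

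**Figure D3:**
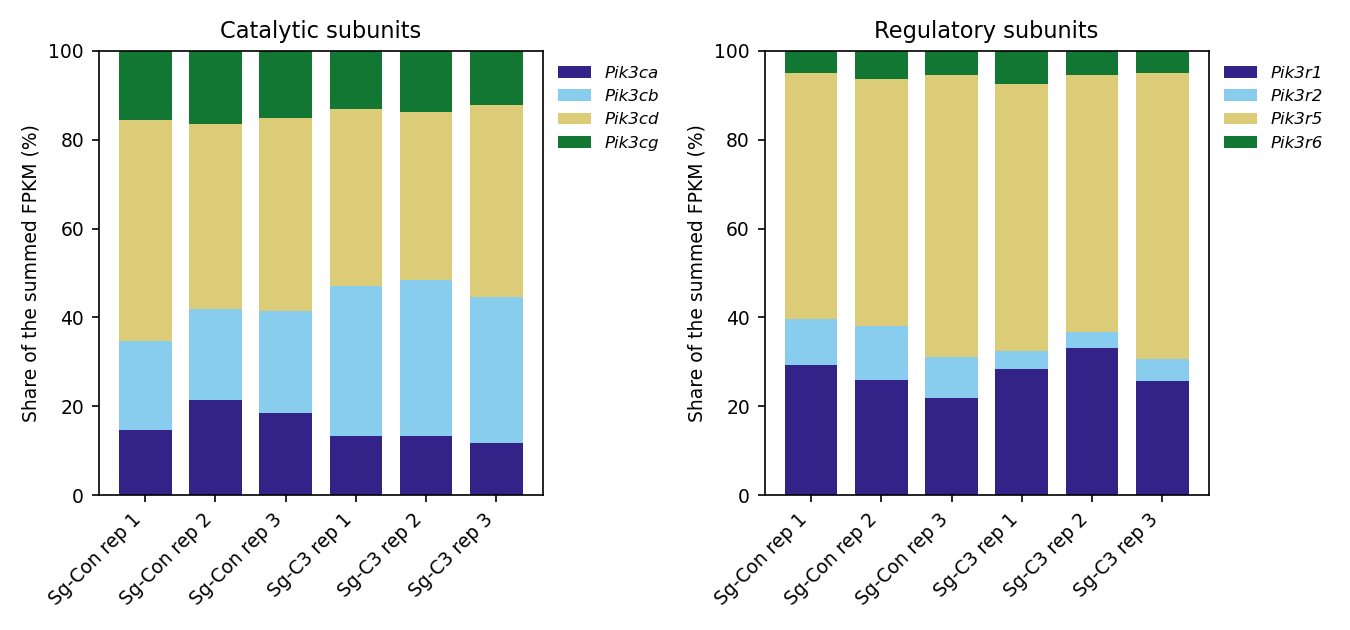
Share of each gene in the summed FPKM of the 4 catalytic genes (left) and of the 4 regulatory genes (right), in percent (vertical axis), with 1 bar for each of the 6 libraries. The Pik3cb segment takes 20.1% to 23.0% of the Sg-Con bars and 32.7% to 35.2% of the Sg-C3 bars, and the Pik3r2 segment is smaller in the Sg-C3 bars.

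The regulatory sum was higher in Sg-C3, and Pik3r2 lost share in it. The 4 regulatory genes summed to 128.06, 106.54 and 112.96 FPKM in Sg-Con and to 143.71, 156.18 and 165.15 FPKM in Sg-C3, 1.34-fold higher without overlap (exact permutation p = 0.10, the smallest possible). Pik3r5 held 58.1% ± 4.56 of the sum in Sg-Con and 60.8% ± 3.44 in Sg-C3, Pik3r1 25.7% ± 3.70 and 29.1% ± 3.80, and Pik3r6 5.57% ± 0.748 and 5.95% ± 1.28, all with overlapping groups (exact permutation p = 0.5, 0.5 and 0.6). Pik3r2 went from 10.2%, 12.2% and 9.21% to 4.08%, 3.6% and 4.97%, without overlap (exact permutation p = 0.10, adjusted over the 4 genes 0.4). In limma after division by the regulatory sum, again with 1 added, the share of Pik3r2 fell (fitted difference -1.19, SE 0.15, adjusted p = 5.39e-04). The other 3 did not pass in that fit (adjusted p = 0.336 for Pik3r1, 0.648 for Pik3r5 and 0.702 for Pik3r6). Without 1 added, the difference in the mean log2 share of Pik3r2 was -1.33.

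Ratios between partner subunits were then taken within each library. Pik3r5 exceeded Pik3r6 by 8.13-fold to 13.1-fold, with overlapping groups and a difference in log2 ratio of -0.02 (exact permutation p = 1). The ratio of Pik3cg to the sum of its regulatory partners was 0.161, 0.167 and 0.125 in Sg-Con and 0.0959, 0.0911 and 0.0687 in Sg-C3. It was thus 1.78-fold lower in Sg-C3, and all 3 Sg-C3 libraries lay below all Sg-Con libraries. The ratio of class IA catalytic RNA to Pik3r1 plus Pik3r2 was 1.33, 1.37 and 1.54 in Sg-Con and 1.32, 0.981 and 1.12 in Sg-C3, so that Sg-C3 replicate 1 nearly reached the Sg-Con range. The catalytic sum stood at 0.991, 0.924 and 0.975 of Inpp5d in Sg-Con and at 1.78, 1.39 and 1.06 in Sg-C3, with a wide spread in Sg-C3. These last 3 ratios each had exact permutation p = 0.10, the smallest possible, and 0.133 adjusted over the 4 ratios. RNA ratios say nothing of how many complexes are assembled.

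**Figure D4:**
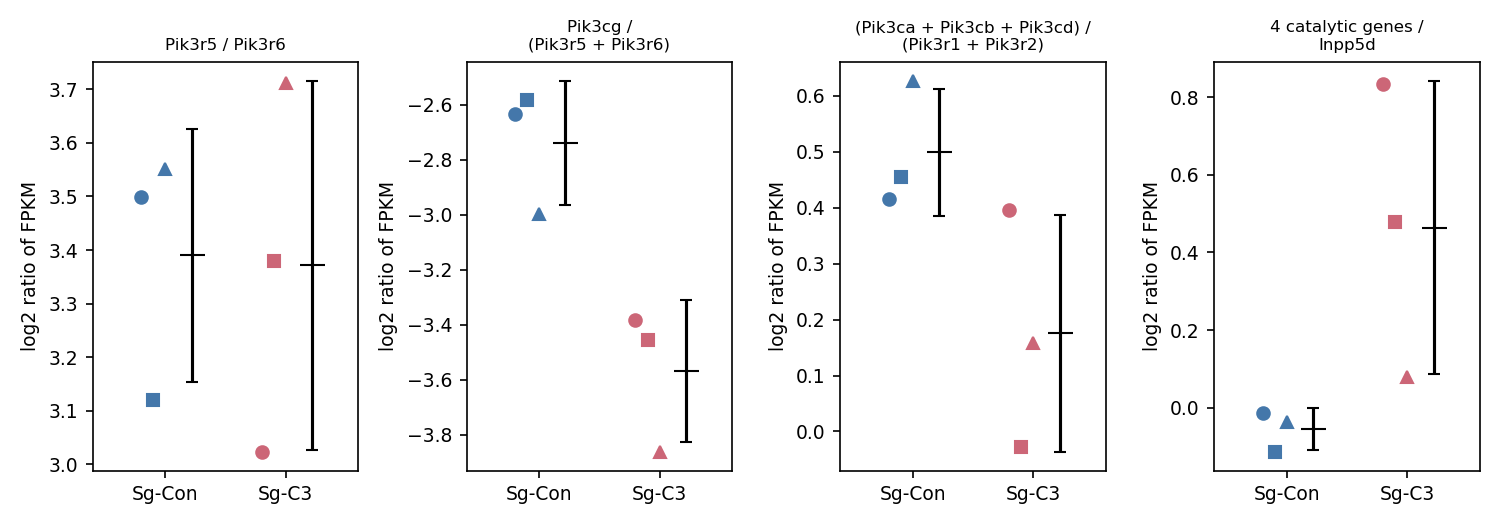
Log2 ratios of FPKM between subunit genes within each library (vertical axes, each with its own range), with circles, squares and triangles for replicates 1, 2 and 3 and black bars for mean and SD. Pik3cg relative to Pik3r5 plus Pik3r6 is lower in all 3 Sg-C3 libraries, while Pik3r5 relative to Pik3r6 overlaps between the groups.

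Genes that act upstream, beside and downstream of the 9 were followed in 6 lists of 156 genes, of which 146 were tested. In these lists 28 genes were called higher and 46 lower, together 50.7% of those tested against the background of 44.4%. The list of adaptors and tyrosine kinases upstream of class IA had 11 of 23 called higher and 2 called lower, against 12.7% and 31.7% of all tested genes. It also holds genes of other kinds, Cd300a, Pirb, Sirpa, Cbl, Cblb, Sos1 and Sos2, of which Cd300a and Sos1 were called higher. The median difference of the whole list was 0.25, against -0.16 for all tested genes. Pik3ap1, whose product BCAP brings class IA PI3-kinase to Toll-like and B cell receptors, rose from 90.6 ± 15.6 to 230 ± 30.8 FPKM (fitted difference 1.34, adjusted p = 0.002). The Src-family kinase genes Src and Fyn rose 3.35-fold and 2.14-fold (1.68 and 1.11, adjusted p = 0.00851 and 0.00835). The docking protein gene Gab3 fell from 4.71 ± 0.862 to 1.62 ± 0.464 FPKM (-1.13, adjusted p = 0.0038), and Pag1, a membrane adaptor gene, fell by 0.37 on the log2 scale. The count of called genes in this list was 8 without Sg-C3 replicate 1 and 7 without Sg-C3 replicate 2. For these fits the share of all tested genes called is not given here.

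G proteins, small GTPases and Ras exchange factors included 11 of 20 called lower and 3 called higher, with a median of -0.35, against 31.7% of all tested genes lower and 12.7% higher. Gnai2, an inhibitory G protein subunit gene, fell from 457 ± 17.1 to 297 ± 26.0 FPKM, Gng2, a gamma subunit gene, from 30.0 ± 2.57 to 18.7 ± 2.65 FPKM and Nras from 34.1 ± 2.12 to 21.8 ± 0.228 FPKM (adjusted p = 0.00357, 0.00713 and 0.00289). The Ras exchange factor gene Rasgrp1 rose 2.31-fold, the G protein beta subunit gene Gnb4 1.77-fold and Rac2, a Rac GTPase of leukocytes, 1.49-fold. After median-ratio scaling 4 genes of this list were lower and 3 higher (17.6% and 19.6% of all tested genes). Without Sg-C3 replicate 2 the calls numbered 8, a fit for which the share of all tested genes called is not given here. Of 17 tested genes in the list of Gi-coupled receptors, which also holds C5ar2, 5 were higher and 5 lower (58.8% called, against 44.4% of all tested genes). Ccr7, Fpr2 and Fpr1 rose (3.28, 1.33 and 1.15), and P2ry12, Ccr2 and Cxcr4 fell (-1.91, -1.59 and -1.01). Of the 3 complement fragment receptors in the list, 2 fell, C5ar1 from 198.35, 216.33 and 195.54 to 113.01, 103.88 and 119.82 FPKM and C3ar1 from 129.82, 135.19 and 120.01 to 70.33, 81.07 and 98.08 FPKM. C5ar2 did not pass, at 1.24 ± 0.303 and 0.94 ± 0.111 FPKM (-0.20, limma adjusted p = 0.249).

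**Figure D5:**
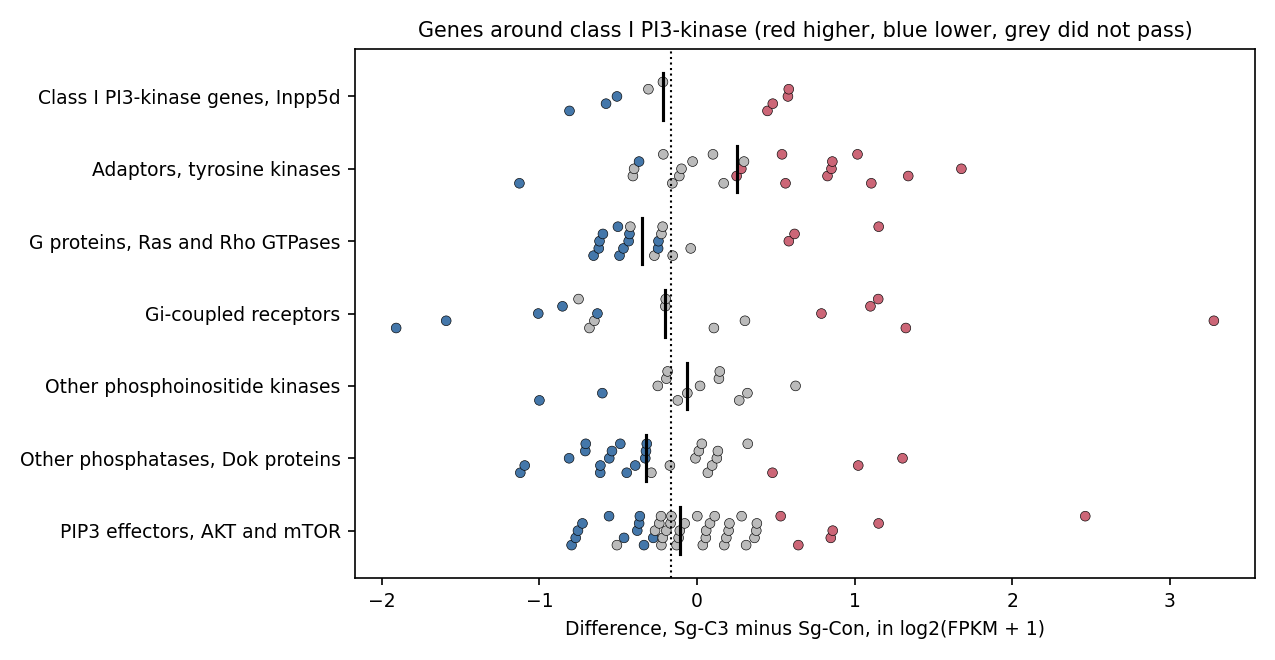
Fitted differences, Sg-C3 minus Sg-Con in log2(FPKM + 1) (horizontal axis), of the tested genes in each list (rows), red where called higher, blue where called lower and grey where not called, with a black bar at the median of each list and a dotted line at the median of all tested genes. The list of adaptors and tyrosine kinases has the highest median, 0.25, and that of G proteins and small GTPases the lowest, -0.35.

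Phosphoinositide kinases and phosphatases outside the 9 genes were each set against the 44.4% of all tested genes called, and not tested against each other. The kinase list also holds the regulatory subunit genes Pik3r4 and Pik3r3, of which Pik3r3 was not tested. Of its 13 tested genes, 2 were lower and 0 higher by limma (15.4% called, with 2 higher at an unadjusted p below 0.05). The lower ones were Pi4ka, a phosphatidylinositol 4-kinase gene, from 15.8 ± 0.742 to 10.1 ± 1.08 FPKM and Pip4k2b from 10.4 ± 1.75 to 4.81 ± 1.77 FPKM. The count reached 4 after median-ratio scaling, where 37.2% of all tested genes were called, 4 with array weights and 5 without Sg-C3 replicate 3. Of 28 phosphoinositide phosphatases and Dok adaptors, which bind SHIP1 or Ras regulators, 15 were lower and 3 higher (64.3% called), with a median of -0.32. Ocrl, a 5-phosphatase gene, fell from 17.1 ± 2.47 to 7.4 ± 1.93 FPKM, Mtmr10, of the myotubularin family, from 26.0 ± 7.67 to 11.4 ± 1.61 FPKM and Dok2 from 61.4 ± 6.66 to 34.6 ± 4.27 FPKM. Inpp5j, another 5-phosphatase gene, rose 3.11-fold, Mtmr14 2.11-fold and Dok1 1.40-fold. After median-ratio scaling the calls in this list numbered 11 of 28, near the 37.2% of all tested genes called. They also numbered 11 on leaving out either replicate 2 of Sg-Con or replicate 2 of Sg-C3. The share of all tested genes called with array weights or with 1 library left out is not given here.

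PIP3 effectors and the AKT and mTOR genes went both ways, with 6 of 45 higher, 11 lower and a median of -0.11, shares near those of all tested genes (12.7% higher and 31.7% lower). Phlpp1, whose product removes a phosphate from AKT, rose from 4.45 ± 0.972 to 28.9 ± 4.63 FPKM (fitted difference 2.46, adjusted p = 7.80e-04). Adap2, a PIP3-binding Arf GTPase-activating protein gene, rose 2.25-fold and Dapp1, a PIP3-binding adaptor gene, 1.89-fold. Arap3, a PIP3-dependent GTPase-activating protein gene, fell by 0.80 on the log2 scale, Btk, a TEC-family kinase gene, by 0.77 and Sgk3, an AKT-related kinase gene, by 0.75. After median-ratio scaling 12 of the 45 were higher and 4 lower, where the calls of all tested genes moved the same way, to 19.6% higher and 17.6% lower. The calls numbered 9 and 8 when Sg-Con replicate 1 and 2 were left out in turn, and 9 each for Sg-C3 replicate 1 and 2. The share of all tested genes called in these fits is not given here, so the smaller counts may not be particular to this list.

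RNA of other cell types differed between the groups beside these results. In bulk samples fewer cells of a type and less RNA per cell cannot be told apart, and p110 delta, p110 gamma, p101 and SHIP1 are also made by lymphocytes and neutrophils. The FPKM of 12 measured natural killer and cytotoxic cell markers summed to 1.64 to 4.76 in Sg-Con and to 34.6 to 43.7 in Sg-C3, and without a filter on low values 10 of the 12 were higher, among them Gzma from 0.203 ± 0.0874 to 7.77 ± 2.16 FPKM. For 12 T cell markers the sums were 3.54 to 6.73 and 18.4 to 26.2 (6 higher), and for 7 B cell markers 2.18 to 5.11 and 5.35 to 7.62 (0 called by limma, 1 higher at an unadjusted p below 0.05). The 12 neutrophil markers summed to 140 to 221 FPKM in Sg-Con and to 390 to 1332 in Sg-C3, with 4 higher, among them S100a9 from 56.5 ± 28.9 to 444 ± 274 FPKM, and the 12 dendritic cell markers to 6.38 to 13.6 and 40.4 to 66.2, with 5 higher. The 12 fibroblast markers summed to 86.8 to 132 and 178 to 245 (4 higher, 2 lower), but without Dcn the sums overlapped, at 67.7 to 103 and 92.3 to 110. The 8 endothelial markers summed to 16.7 to 33.1 and 86.5 to 101 (2 higher, 1 lower), but without Pecam1 and Eng the sums overlapped, at 6.2 to 7.12 and 5.14 to 7.44, and Cdh5 fell. The T cell sums without Cd4 were 3.21 to 4.15 and 7.25 to 10.7, and the dendritic cell sums without Ccr7 5.05 to 10.4 and 17.6 to 20.1. The 8 carcinoma markers summed to 18.7 to 31.5 and 3.55 to 4.14 (2 lower). Krt8, an epithelial keratin gene, was at 14.3 ± 6.73 and 0.323 ± 0.0551 FPKM. No marker of these lists was at 0 in all 6 libraries. The counts of called markers are from the fit without the filter, for which the share of all genes called is not given here. With the filter, 6 of 6 tested natural killer and cytotoxic, 2 of 2 T cell, 3 of 4 dendritic cell and 4 of 7 neutrophil markers were called higher. In these lists 0 were called lower, where 12.7% of all tested genes were higher and 31.7% lower. Of the markers called higher, Gzma, Gzmb, Nkg7, Il2rb, Klrb1c and Cd3g lay below 1 FPKM in every Sg-Con library. They passed the filter only through Sg-C3 and could hardly be called lower, so these counts are not to be read against those shares. The 8 macrophage markers themselves summed to 10895 to 13096 FPKM in Sg-Con and to 5791 to 7200 in Sg-C3, mostly Lyz2. The part of these differences in the levels of the 9 genes was not tested.

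For each catalytic gene the tested genes with the nearest profile over the 6 libraries were found by the root mean square distance between log2(FPKM + 1) profiles, each centred on its own mean. They were Bcl3, Otulin and Marchf5 for Pik3cb (distances 0.026, 0.030 and 0.040, against a median of 0.42 over all tested genes), and Hes6, Memo1 and Gng12 for Pik3ca (0.035, 0.046 and 0.048, against 0.29). For Pik3cg they were Sergef, Zfp511 and Akip1 (0.028, 0.032 and 0.054, against 0.25), and for Pik3cd Prodh, Rassf5 and Gpr157 (0.049, 0.050 and 0.051, against 0.27). All 6 libraries and their scaling are shared by these profiles, and 6 points place many genes close by.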

How the data were processed

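RNA of flow-sorted tumour-associated macrophages was extracted with Trizol, and the labels' protocols name a TruSeq and an MGIEasy library kit. The authors deposited 1 FPKM value per gene and library, per the file headers, with no read counts. Bowtie 0.12.2 and mm8 are named in the submitters' processing notes. The software behind the FPKM values was not given in the sources used here. Groups were taken from the source name of each sample, and replicates were numbered in accession order and pair nothing.

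A gene was tested when 3 or more of the 6 libraries reached 1 FPKM, which left 11198 genes. They were fitted in limma 3.58.1 (R 4.3.3, lmFit and eBayes with trend) on the log2(FPKM + 1) scale, and p-values were adjusted over all of them by Benjamini-Hochberg. SE is limma's, SD is over 3 libraries, and folds are ratios of mean FPKM. Shares and ratios were tested with exact two-sided permutation tests (scipy 1.17.1). The fit was tested on simulated data with far fewer changed genes than here and larger changes than those of the 9 genes. That test therefore does not bear on their calls. Depth was estimated from short non-coding genes, where 88.8% to 94.5% of values of up to 8 reads were whole within 0.1 read. By chance 20% would be at a fixed depth. The depth and a length offset were chosen for the highest share, so 20% is not a matched chance level. With GENCODE lengths, which may differ from the authors', each of the 9 genes then rests on 329 reads or more per library, a counting error of at most 5.51%.

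The 9 genes and all lists were chosen with earlier results of these data known. Apart from the 9 genes, C3, C3ar1 and C5ar1, the named genes are up to 3 called genes of each direction per pathway list with non-overlapping groups, the 3 nearest profiles of each catalytic gene, and up to 3 called markers of highest level per cell type list. Of the last, some are given. Mertk, Adgre1 and C5ar2 were named after their values were seen. Of the gene identifiers, 15440 were found in RefSeq's table, and 23 symbols turned into dates were restored from it. A column of gene clusters was not used here.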

Additional observations from a re-analysis of the deposited data

How the results depend on the processing

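The fits were repeated with 0.1 in place of 1 added, without the filter or with a mean of 5 FPKM required, with quantile-normalized or median-ratio scaled values, with array weights or robust eBayes, with title style as a covariate, and with each library left out. Title style sets replicate 3 of each group, titled in another way, apart from replicates 1 and 2. Whether it marks a batch is not given in the labels. The direction of each of the 9 genes held in all of these fits, and calls were lost 15 times, by Pik3ca, Pik3r1, Pik3r6 or Inpp5d. The number of genes called ranged from 4 to 7 with 1 library left out, and was 4 when Sg-C3 replicate 1 or 2 was left out. The number higher ranged from 2 to 4, and was 2 without either of these or without Sg-Con replicate 3. The number lower was 1 after median-ratio scaling. For fits with 1 library left out, the share of all tested genes called is not given here. A smaller count in them, for the 9 genes or for the lists, may therefore not be particular to these genes. The shares of Pik3cb and Pik3r2, which the exact test cannot call, passed in limma after division by the family sum (fitted differences 0.64 and -1.19). The share of all genes called in those fits is not given here. Results near 0 changed sign: the log2 ratio of Pik3r5 to Pik3r6 was 0.034 with 1 added to both sums and ranged from -0.19 to 0.16 with 1 library left out, and the change in the share of Pik3r6 ranged from -0.33 to 0.90 percentage points. The log2 fold of the catalytic sum, -0.07 as deposited, was 0.12 after median-ratio scaling and ranged from -0.14 to 0.030 with 1 library left out, positive without Sg-Con replicate 1. These alternatives for the sums, and the marker sums without their leading genes, were chosen after seeing the data. The cause was not tested. The estimated counting error was at most 5.51% for the 9 genes, and its part in the spread between libraries was not tested. No paired analysis was possible because the labels of the groups share no replicate numbers.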
